A study of Mus musculus with 6 samples.

Results

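The genes described here are 10 genes of the gastric epithelium: the trefoil factors Tff1, Tff2 and Tff3, the gastrokines Gkn1, Gkn2 and Gkn3, and Anxa10, Ctse, Cldn18 and Vsig1. They were chosen by name, from genes used to describe the epithelium of papillary biliary lesions, and every non-control probe that the arrays assign to one of them was taken. That gave 12 probes, with 1 for each gene except Gkn1 and Anxa10, which had 2. The arrays hold 37008 genes on 56605 probes in all, and 7 of the 10 genes were among the 20737 genes bright enough to be tested.

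The measurements were made on total RNA from common bile duct epithelia of mice on the C57BL/6 strain, of the line labelled iFGF10. Mice labelled DOX+ drank 0.02% doxycycline in water for 5 days, and mice labelled DOX- drank water alone for 5 days, with 3 arrays in each group. FGF10 is a secreted growth factor that acts on epithelia, doxycycline is the drug used to switch on tetracycline-controlled genes, and the series title links FGF10 signalling to papillary neoplasia of the biliary tree. The submitters' design states 3 mice per condition. The source names call the DOX- mice untreated iFGF10 mice, whereas their descriptions carry names beginning with WT and a pair of numbers, so whether they carry the construct, and whether each array holds 1 mouse or a pool, is not settled by the labels. The promoter that drives the construct and the age of the mice are not given in the sources used here, and construct-free mice on doxycycline were not analysed here, so drug and induced gene cannot be told apart. P-values below measure only the spread between these samples.

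Between 55.9% and 61.9% of the spots of an array were well above background, the scanner software's own flag for a spot brighter than its surroundings, and no spot was saturated. None of the 3 probes for Fgf10 itself reached that flag on any array. Whether those probes match the induced transcript was not tested, so they do not check the labels. Of 19 genes listed for bile duct cells, 18 or 19 were well above background on each array, among them the duct keratins Krt19 and Krt7 on all 6. All 10 listed genes of fibroblasts and smooth muscle were well above background on all 6 arrays too, so the RNA was not from epithelial cells alone. The DOX+ arrays and DOX- replicate 1 lay in the first row of 1 slide, and DOX- replicates 2 and 3 in the second row.

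Trefoil factors are small secreted peptides, held in a compact fold by disulfide bonds, that mucus-producing cells release together with mucins and that help to repair mucosal surfaces. In the stomach, Tff1 is made by surface mucous cells and Tff2 by mucous cells of the glands, whereas Tff3 is the trefoil factor of intestinal goblet cells. Gastrokines are secreted proteins with a BRICHOS domain and are made by gastric mucous cells. The bile duct is itself a foregut derivative whose lining and glands secrete mucus, and gastric-type mucous differentiation is one of the types recognised in papillary tumours of the duct.

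The gastrokine genes lie side by side, and their 4 probes span 37784 bases of chromosome 6 (mm9). The 250 bases upstream of the start of each are shown because, of these 3 neighbours, the arrays measured Gkn3 and not Gkn1 or Gkn2. That of Vsig1 follows because its signal, like that of Gkn3, was high on the array of DOX+ replicate 2. Sequences are from RefSeq (GRCm38.p6) and run 5′ to 3′ on the gene's own strand: Gkn1 at chr6:87350916-87351165 (minus strand), Gkn2 at chr6:87373115-87373364 (plus strand), Gkn3 at chr6:87388936-87389185 (minus strand) and Vsig1 at chrX:140907358-140907607 (plus strand). Capitals mark each match to GATAA on either strand, the core that GATA factors recognise.
Gkn1: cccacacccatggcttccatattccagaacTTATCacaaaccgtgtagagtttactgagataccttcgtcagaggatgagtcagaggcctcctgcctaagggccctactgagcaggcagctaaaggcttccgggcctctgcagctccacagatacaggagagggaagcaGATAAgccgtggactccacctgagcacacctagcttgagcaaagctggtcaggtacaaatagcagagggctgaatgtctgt
Gkn2: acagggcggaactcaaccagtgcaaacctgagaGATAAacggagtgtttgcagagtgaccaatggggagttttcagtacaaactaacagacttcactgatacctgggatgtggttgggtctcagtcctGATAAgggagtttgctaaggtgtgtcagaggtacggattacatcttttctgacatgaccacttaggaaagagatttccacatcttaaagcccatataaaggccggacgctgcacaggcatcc
Gkn3: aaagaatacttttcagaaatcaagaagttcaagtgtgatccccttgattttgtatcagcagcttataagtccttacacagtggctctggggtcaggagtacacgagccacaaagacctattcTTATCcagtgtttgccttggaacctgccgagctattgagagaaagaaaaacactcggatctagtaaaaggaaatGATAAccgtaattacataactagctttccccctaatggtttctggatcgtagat
Vsig1: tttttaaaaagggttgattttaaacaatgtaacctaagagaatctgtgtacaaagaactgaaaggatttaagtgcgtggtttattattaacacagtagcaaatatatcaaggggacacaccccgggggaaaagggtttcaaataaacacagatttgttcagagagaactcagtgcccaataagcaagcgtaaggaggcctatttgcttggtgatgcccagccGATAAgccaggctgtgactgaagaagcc
Gkn1, Gkn2 and Gkn3 each had 2 matches and Vsig1 had 1. Of 32851 mouse promoters of the same length, 22.6% held at least 1 match and 4.28% held 2 or more. The forkhead motif TGTTTNC, found in 17.8% of promoters on either strand, occurred 1 time each in the windows of Gkn2 and Gkn3 and was absent from those of Gkn1 and Vsig1. The motif TATAAA, found in 12.4% of promoters on either strand, occurred 1 time in the window of Gkn2 and in none of the other 3 printed. No match overlapped a match to another of these motifs. The number of GATAA matches did not separate the gastrokine gene that was measured from its neighbours, and nothing about binding follows from these letters. Promoters of 6 of the 10 genes were matched in all, by symbol. The windows not printed held 2 GATAA and 2 forkhead matches for the upstream start of Cldn18, 2 forkhead matches for its downstream start, and 1 TATAAA match for Anxa10.

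The trefoil genes are likewise neighbours, with 3 probes within 36252 bases of chromosome 17 (mm9). The Tff2 probe is shown because it crosses a splice junction: its 60 bases are spread over 825 bases of the genome, at chr17:31279256-31280080 on the minus strand.
Tff2 probe: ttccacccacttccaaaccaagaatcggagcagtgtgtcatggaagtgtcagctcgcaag

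Levels below are log2 of the scanner's processed signal minus the log2 of the array's 75th percentile, so that 0 is the brightness of the 75th percentile of spots. Since probes differ in how brightly they report, levels are compared between arrays and not between genes. For Tff1 (probe at chr17:31298471-31298530), the peptide of gastric surface mucous cells, levels were -3.41, -1.22 and -2.62 on the arrays of DOX+ replicates 1, 2 and 3, against -0.77, -1.19 and -1.20 on those of DOX- replicates 1, 2 and 3. All 3 DOX+ arrays were thus below all 3 DOX- arrays, but DOX+ replicate 2 only just. The means were -2.42 ± 1.11 in DOX+ and -1.05 ± 0.25 in DOX- (SD, n = 3 each). The difference, DOX+ minus DOX-, was -1.36 (SE 0.54, 95% interval -2.67 to -0.06), which is 2.58-fold lower in DOX+. It did not pass limma's test over all 20737 genes (Benjamini-Hochberg adjusted p = 0.363; unadjusted p = 0.0425). The exact 2-sided permutation test gave p = 0.1, the smallest that 3 arrays against 3 can give. In RNA from a mix of cells, fewer cells that make a transcript and less of it per cell cannot be told apart.

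Tff2, which gastric glands and the submucosal glands of the duodenum secrete, stood among the bright spots on every array. Its levels were 4.21, 6.48 and 4.12 in DOX+ replicates 1 to 3, against 5.41, 5.30 and 4.50 in DOX- replicates 1 to 3. DOX+ replicate 2 was higher than every DOX- array and the other DOX+ arrays were lower than every DOX- array, so the groups overlapped. The means were 4.94 ± 1.34 in DOX+ and 5.07 ± 0.50 in DOX-, and the difference of -0.13 (SE 0.67, 95% interval -1.76 to 1.49) did not pass the test (limma adjusted p = 0.955). Its sign was that of DOX+ replicates 1 and 3: without DOX+ replicate 2 the difference was -0.91, and without replicate 1 or 3 it was 0.23 or 0.27.

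Tff3 (probe at chr17:31262279-31262338), the goblet cell trefoil factor, was also bright on every array. Levels were 3.57, 5.64 and 5.71 in DOX+ replicates 1 to 3, against 5.44, 5.26 and 6.51 in DOX- replicates 1 to 3. DOX+ replicate 1 was lower than any other array, whereas DOX+ replicates 2 and 3 lay within the range of the DOX- arrays. The difference was -0.76 (SE 0.65, 95% interval -2.35 to 0.82; limma adjusted p = 0.640), and without DOX+ replicate 1 it was -0.06.

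Among the gastrokines, Gkn1 and Gkn2, products of gastric surface mucous cells, did not reach the well-above-background flag on a single array of the 6. The Gkn1 probes lie at chr6:87295651-87295710 and chr6:87295866-87295925, and the Gkn2 probe at chr6:87329285-87329344. Their processed signals lay between 4.62 and 6.51 units on all arrays, where the scanner software had replaced the measured value by a background estimate. These values bound the level from above and hold no comparison between the groups.

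Gkn3, the gastrokine of mucous neck cells in the mouse, was well above background on all 6 arrays (probe at chr6:87333375-87333434). Processed signals were 608, 6564 and 357 units in DOX+ replicates 1 to 3, against 653, 734 and 530 units in DOX- replicates 1 to 3. After scaling, the levels were -0.22, 2.99 and -1.34 in DOX+ and -0.32, -0.27 and -0.32 in DOX-. The DOX- arrays were nearly equal, 1.04-fold from lowest to highest, while the DOX+ arrays spanned 20.1-fold, with replicate 2 far above and replicate 3 below every DOX- array. The SD was 2.25 in DOX+ and 0.03 in DOX-. The difference between the means was 0.78 (SE 1.05, 95% interval -1.76 to 3.32) and did not pass the test (limma adjusted p = 0.780). It was carried by DOX+ replicate 2, since without that array it was -0.47.

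**Figure D1:**
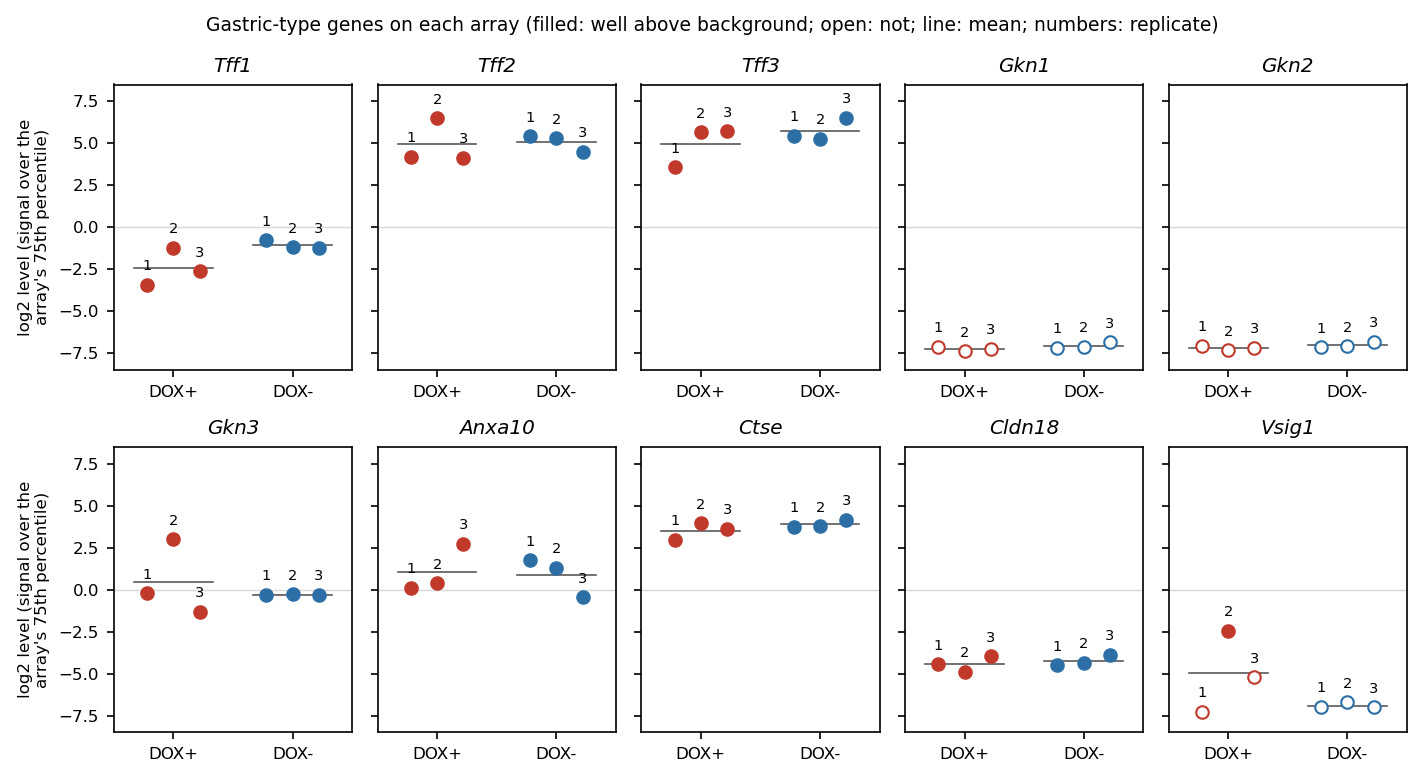
Each panel shows 1 gene, with the log2 level (processed signal over the array's 75th percentile) on the vertical axis for the 3 DOX+ arrays (red) and the 3 DOX- arrays (blue), numbered by replicate, and a line at each group's mean. Filled points were well above background and open points were not; of the 2 Gkn1 and 2 Anxa10 probes the brighter is drawn. Gkn3 shows DOX+ replicate 2 at 2.99 and the DOX- arrays together near -0.3.

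Anxa10, a calcium-dependent phospholipid-binding protein found mainly in gastric epithelium, varied widely in both groups. At the probe used for the test (chr8:64536504-64536563), levels were 0.10, 0.36 and 2.74 in DOX+ replicates 1 to 3, against 1.73, 1.28 and -0.45 in DOX- replicates 1 to 3. The highest array was DOX+ replicate 3 and the lowest was DOX- replicate 3. Means were 1.07 ± 1.46 in DOX+ and 0.85 ± 1.16 in DOX-, a difference of 0.21 (SE 0.87, 95% interval -1.89 to 2.32; limma adjusted p = 0.941). Without DOX+ replicate 3 it was -0.62. The second probe (chr8:64542573-64542632) was dimmer, being well above background on 2 of 3 arrays of each group. It gave -5.64, -4.29 and -2.52 in DOX+ and -3.12, -3.99 and -5.17 in DOX-, with the same order of arrays within each group and a difference of -0.06.

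Ctse encodes cathepsin E, an intracellular aspartic protease abundant in gastric mucous cells. At its probe (chr1:133571990-133572049), levels were 2.97, 3.96 and 3.62 in DOX+ replicates 1 to 3, against 3.72, 3.77 and 4.15 in DOX- replicates 1 to 3. As with Tff3, DOX+ replicate 1 was the lowest of the 6 arrays and DOX- replicate 3 the highest. The difference was -0.36 (SE 0.28, 95% interval -1.04 to 0.31; limma adjusted p = 0.599), and without DOX+ replicate 1 it was -0.09.

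Cldn18 and Vsig1 encode proteins of the cell junction: a tight-junction claudin with a stomach and a lung isoform, and an adhesion protein of the immunoglobulin superfamily. The Cldn18 probe (chr9:99592661-99592720) was dim but well above background on all arrays, and isoforms were not separated. Its levels were -4.45, -4.88 and -3.97 in DOX+ replicates 1 to 3, against -4.51, -4.36 and -3.87 in DOX- replicates 1 to 3. The groups overlapped, and the difference was -0.19 (SE 0.28, 95% interval -0.87 to 0.50; limma adjusted p = 0.812).

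Vsig1 (probe at chrX:137472583-137472642) was well above background on 1 array alone, that of DOX+ replicate 2. Processed signals were 4.54, 150 and 24.2 units in DOX+ replicates 1 to 3, against 6.50, 8.42 and 5.12 units in DOX- replicates 1 to 3. It did not reach the brightness needed for the test and has no fold change. DOX+ replicate 2 was thus the highest array for Tff2, Gkn3 and Vsig1.

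Together, 0 of the 7 genes in the fit passed limma's adjusted test, which 0.0386% of all genes tested passed (8 of 20737; 0.0193% higher and 0.0193% lower). At an unadjusted p under 0.05 there was 1 of 7, Tff1, against 13.3% of all genes (7.17% higher and 6.17% lower). That count was 0 of 7 with a slide row block, a replicate block or array weights, and without each array in turn except DOX+ replicate 2, without which it was 2 of 7 (Tff1 and Tff2). The groups did not overlap for 1 of 7, again Tff1 and lower in DOX+, against 10.6% of all genes in that direction, 10.4% in the other and 21.0% in either. The mean was higher in DOX+ for 2 of 7 (Gkn3 and Anxa10) and lower for 5 of 7, against 48.8% higher and 51.2% lower over all genes. The median difference was -0.19 over the 7 genes and -0.01 over all genes. The median SE was 0.65 for these genes and 0.19 over all genes, so their 95% intervals were wider than those of most genes.

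**Figure D2:**
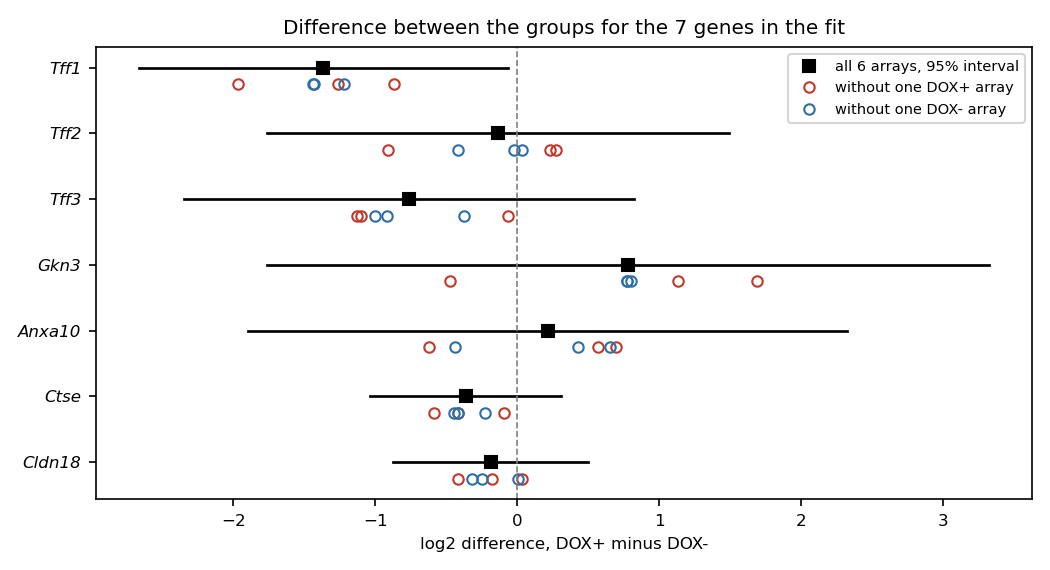
The horizontal axis gives the log2 difference, DOX+ minus DOX-, of the 7 genes in the fit: squares with lines are the estimate from all 6 arrays and its 95% interval, and open circles below are the estimates with 1 array left out (red, a DOX+ array; blue, a DOX- array). The circles of Tff1, Tff3 and Ctse stay below 0, while those of Tff2, Gkn3, Anxa10 and Cldn18 lie on both sides.

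Leaving out each array in turn showed which differences hung on 1 of them. The difference of Tff1 ranged from -1.96 to -0.87, that of Tff3 from -1.13 to -0.06 and that of Ctse from -0.58 to -0.09. The sign turned for the other 4: Tff2 ranged from -0.91 to 0.27, Gkn3 from -0.47 to 1.69, Anxa10 from -0.62 to 0.70 and Cldn18 from -0.42 to 0.04. None of the 7 passed the adjusted test in any of these fits. Within the first slide row, where the only DOX- array is replicate 1, the difference of Tff1 was -1.65 (limma adjusted p = 0.777, from the fit with a slide row block).

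The DOX+ arrays differed more among themselves than the DOX- arrays did for each of the 7 genes. The SD within DOX+ was the larger in 7 of 7, against 45.9% of all genes tested. The median SD was 1.21 in DOX+ and 0.34 in DOX- for these genes, and 0.20 in DOX+ and 0.22 in DOX- over all genes. An SD above 1 log2 unit occurred in DOX+ for 5 of 7 (Tff1, Tff2, Tff3, Gkn3 and Anxa10) against 3.86% of all genes, and in DOX- for 1 of 7 (Anxa10) against 4.38%. These counts describe the arrays and were not tested, since 3 arrays of a group show the spread of few mice. A larger SD in DOX+ was not particular to these genes, and genes described below went both ways. The SD was larger in DOX+ for Muc6 (1.88 against 0.305 in DOX-) and Pgc (1.17 against 0.30). It was smaller in DOX+ for Agr2 (1.52 against 1.71 in DOX-) and Foxa2 (0.17 against 0.28).

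**Figure D3:**
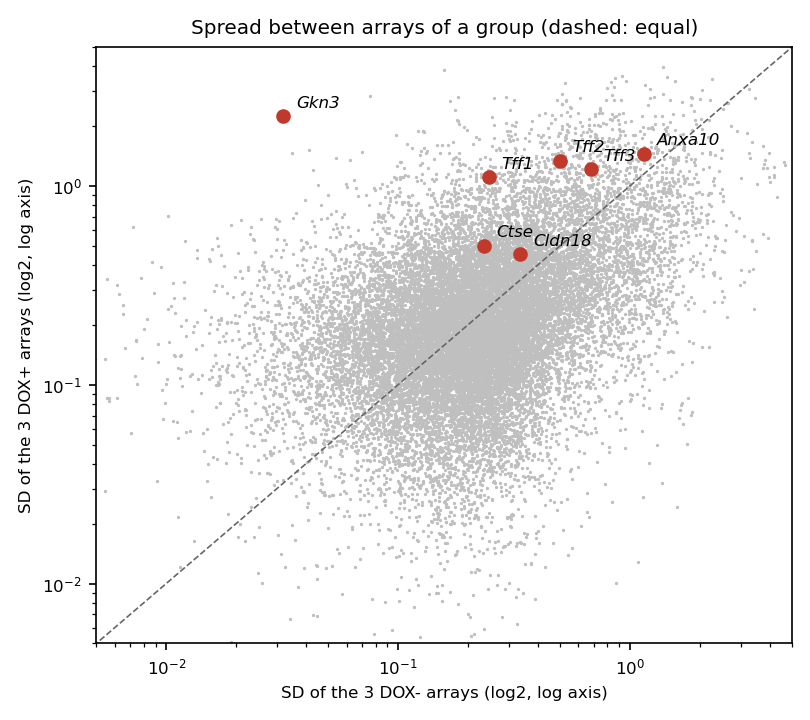
The SD of the 3 DOX+ arrays (vertical, log axis) is plotted against the SD of the 3 DOX- arrays (horizontal, log axis), both in log2 units, for all 20737 genes tested (grey) and the 7 gastric-type genes (red), with a dashed line where both are equal. All 7 lie above the line, and Gkn3 stands farthest from it, at 2.25 in DOX+ and 0.03 in DOX-.

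The high and low DOX+ arrays were not the same for every gene. DOX+ replicate 1 had the lowest DOX+ level for 4 of the 7 genes (Tff1, Tff3, Anxa10 and Ctse). The highest DOX+ level fell on replicate 2 for 4 (Tff1, Tff2, Gkn3 and Ctse) and on replicate 3 for 3 (Tff3, Anxa10 and Cldn18). Over the 7 genes in the fit the summed signal was 40.3, 165 and 89.2 in DOX+ replicates 1 to 3, in units of each array's 75th percentile. In DOX- replicates 1 to 3 it was 104, 95.2 and 134. Most of each sum came from Tff2 and Tff3.

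The genes whose levels followed those of Tff1 most closely over the 6 arrays were C030034I22Rik (Pearson r = 0.994), BB345836 (0.989), an entry named only by its interval on chromosome 18 (0.986), Rbm43 (0.986) and 4930539J05Rik (0.985). Of the 20737 genes, 104 had r above 0.9. Each r rests on 6 points, of which DOX+ replicate 1 is the lowest for Tff1. Gkn1, Gkn2 and Vsig1 were not in the fit and so were not ranked. None of the other gastric-type genes in the fit was among the first 5.

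Other genes of the gastric mucous lineage, listed by role but with earlier results of these data known, went both ways. Of 19 that were measured, 10 had a higher and 9 a lower mean in DOX+, with a median difference of 0.08, and 0 passed the limma test. At an unadjusted p under 0.05 there were 3 higher and 3 lower, against 7.17% and 6.17% of all genes. Of the 19, 4 entered the test through 1 group alone, being below the well-above-background flag on part of the other group's arrays. Muc5ac, the mucin that gastric surface cells secrete with Tff1, stayed below that flag on every array. Muc6, the gland mucin secreted with Tff2, was measured on all arrays, at -4.57, -0.86 and -2.15 in DOX+ replicates 1 to 3 against -4.93, -4.60 and -4.32 in DOX- replicates 1 to 3. As for Tff2, Gkn3 and Vsig1, its highest array was DOX+ replicate 2, and the difference of 2.09 (SE 0.89) did not pass the test (limma adjusted p = 0.384).

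The smallest p-values of that list belonged to Agr2, Slc9a4 and Tmem100. Agr2, a disulfide isomerase needed for mucin folding, had levels of 3.16, 5.60 and 2.79 in DOX+ replicates 1 to 3 against -0.47, -1.01 and -3.67 in DOX- replicates 1 to 3. Every DOX+ array was thus above every DOX- array, by 5.57 on average (SE 1.07; limma adjusted p = 0.176). Agr2 is also made by intestinal goblet cells and stands in that list too. Slc9a4, a sodium-proton exchanger, differed by -1.24 (limma adjusted p = 0.206) without overlap between the groups. Of the 19 genes measured, 3 were higher and 3 lower without overlap, against 10.4% and 10.6% of all genes. Tmem100, a membrane protein, was well above background on 3 DOX+ arrays and 1 DOX- array, so its difference of 3.15 (limma adjusted p = 0.277) is set in part against background values.

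Genes of the other gastric cell types were in part too dim for the test. Of the chief cell genes, 6 of 10 were measured, 5 with a higher and 1 with a lower mean in DOX+, at a median difference of 0.67. Over all genes 48.8% had a higher mean in DOX+. Clps, among the higher chief cell genes (difference 0.88), also stands in the pancreatic acinar list, so the count and the median rest in part on it. Pgc, the zymogen progastricsin, had the smallest p-value of the list, at 1.26, 0.58 and -1.02 in DOX+ replicates 1 to 3 against -2.08, -1.88 and -1.49 in DOX- replicates 1 to 3. The groups did not overlap, and the difference of 2.09 (SE 0.57) did not pass the test (limma adjusted p = 0.248). Of the 6 genes, 2 were higher without overlap, against 10.4% of all genes. Pga5, another pepsinogen, differed by 0.93 (limma adjusted p = 0.298) and Cblif, the intrinsic factor, by 0.43 (limma adjusted p = 0.504). Of 14 parietal cell genes 7 were measured, 5 higher and 2 lower, with a median of 0.12. The proton pump subunit Atp4a gave -2.12, -4.21 and -0.59 in DOX+ replicates 1 to 3 against -0.55, -0.29 and 0.27 in DOX- replicates 1 to 3 (difference -2.12, SE 0.87; limma adjusted p = 0.374), and its partner Atp4b stayed below the flag on every array. The exchanger Slc9a2 differed by -0.42 (limma adjusted p = 0.486) and the water channel Aqp4 by 0.21 (limma adjusted p = 0.583). None of the measured chief or parietal cell genes passed the limma test.

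The listed transcription factors of foregut and stomach gave 10 higher and 12 lower of 22 measured, with a median of -0.02 and 0 past the limma test; 3 of the 22 entered it through 1 group alone. Gata6, a GATA factor of foregut epithelium, was nearly level over the arrays, between 2.80 and 3.03 in DOX+ and between 2.81 and 3.13 in DOX- (difference -0.05, limma adjusted p = 0.912). Pdx1, a factor of antrum, duodenum and pancreas, differed by 0.03 (limma adjusted p = 0.973). Sox2, a factor of the stomach lining, reached the well-above-background flag on no array, and Cdx2, the intestinal factor, on 2 DOX+ arrays and 1 DOX- array. The forkhead factor Foxa2 differed by -0.60 (limma adjusted p = 0.294) and the nuclear receptor Hnf4a by -0.38 (limma adjusted p = 0.358). Foxa3, another forkhead factor, was well above background on 3 DOX+ arrays and 1 DOX- array, so its difference of 2.19 (limma adjusted p = 0.339) is set in part against background values.

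The samples also held signal of genes listed for cells of neighbouring organs, in amounts that differed between arrays. The source of these transcripts was not tested. The summed signal of the 17 pancreatic acinar genes measured, of 19 listed, was 209, 112 and 142 in DOX+ replicates 1 to 3. In DOX- replicates 1 to 3 it was 60.9, 119 and 344, again in units of the array's 75th percentile. On DOX- replicate 1 most of that sum came from Ctrb1 and Cela1, at levels of 5.16 and 4.58. The mean level of the 17 genes was 2.07, -0.03 and 0.97 in DOX+ and -3.27, 0.88 and 2.88 in DOX-. Of the 19 genes, 17 were well above background on each DOX+ array and 12, 19 and 18 on the DOX- arrays. The 7 hepatocyte genes measured summed to 76.5, 151 and 77.2 in DOX+ and 165, 99.1 and 68.0 in DOX-. Of the 8 listed, 7 or 8 were well above background on each array.

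Tff3 is itself a product of intestinal goblet cells. Of 10 goblet cell genes 8 were measured, and DOX+ had the higher mean in 6 and the lower in 2, at a median difference of 2.80 and 0 past the limma test. Of those 8, Muc2, Tpsg1 and Zg16 entered the test through DOX+ alone, so the count and the median rest in part on background values in DOX-. Zg16 also stands in the pancreatic acinar list. It was at 0.74, -2.07 and 4.09 in DOX+ replicates 1 to 3 against -5.05, -0.42 and 1.22 in DOX- replicates 1 to 3, of which 2 were well above background. The mean level of the 8 genes was 0.58, 2.78 and 3.10 in DOX+ replicates 1 to 3 and -0.26, -0.44 and -0.49 in DOX- replicates 1 to 3. Muc2, the goblet cell mucin, was at -4.17, 1.40 and 1.89 in DOX+ replicates 1 to 3 against -3.57, -4.76 and -5.47 in DOX- replicates 1 to 3, of which 1 was well above background (difference 4.31, limma adjusted p = 0.348). The smallest p-values of the list were those of Agr2, given above, and of Tpsg1, a tryptase, which was well above background on 3 DOX+ arrays and 1 DOX- array (difference 3.72, limma adjusted p = 0.269). Muc2 and Tff3 thus shared their low DOX+ array, replicate 1. DOX+ replicates 2 and 3 lay within the DOX- range for Tff3 and above every DOX- array for Muc2. The 2 goblet cell genes with a lower mean in DOX+ were Fcgbp and Spink4. Fcgbp was at 4.44, 4.58 and 5.18 in DOX+ replicates 1 to 3 against 5.14, 5.29 and 5.33 in DOX- replicates 1 to 3 (difference -0.52, limma adjusted p = 0.377). Spink4 was at 6.84, 6.92 and 7.25 in DOX+ replicates 1 to 3 against 7.22, 7.28 and 7.17 in DOX- replicates 1 to 3 (difference -0.22, limma adjusted p = 0.558).

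Of 16 duodenal enterocyte genes 11 were measured, and DOX+ had the higher mean in 8 and the lower in 3, at a median difference of 0.67 and 0 past the limma test; 3 of the 11 entered it through 1 group alone. Their mean level was -0.89, -0.70 and 0.97 in DOX+ replicates 1 to 3 and -0.93, -0.87 and -1.54 in DOX- replicates 1 to 3, and all 16 were well above background on DOX+ replicate 3 alone, the array on which Anxa10 was highest. The sugar transporter Slc5a1, well above background on 3 DOX+ arrays and 1 DOX- array, differed by 1.73 (limma adjusted p = 0.132), the peptidase Anpep by 1.69 (limma adjusted p = 0.173) and the microvillus protein Vil1 by -0.71 (limma adjusted p = 0.333). The summed signal of the 11 measured genes was 27.3, 19.7 and 44.1 in DOX+ and 26.6, 24.2 and 23.1 in DOX-. The part of intestinal, pancreatic or liver RNA in the levels of the gastric-type genes was not tested.

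**Figure D4:**
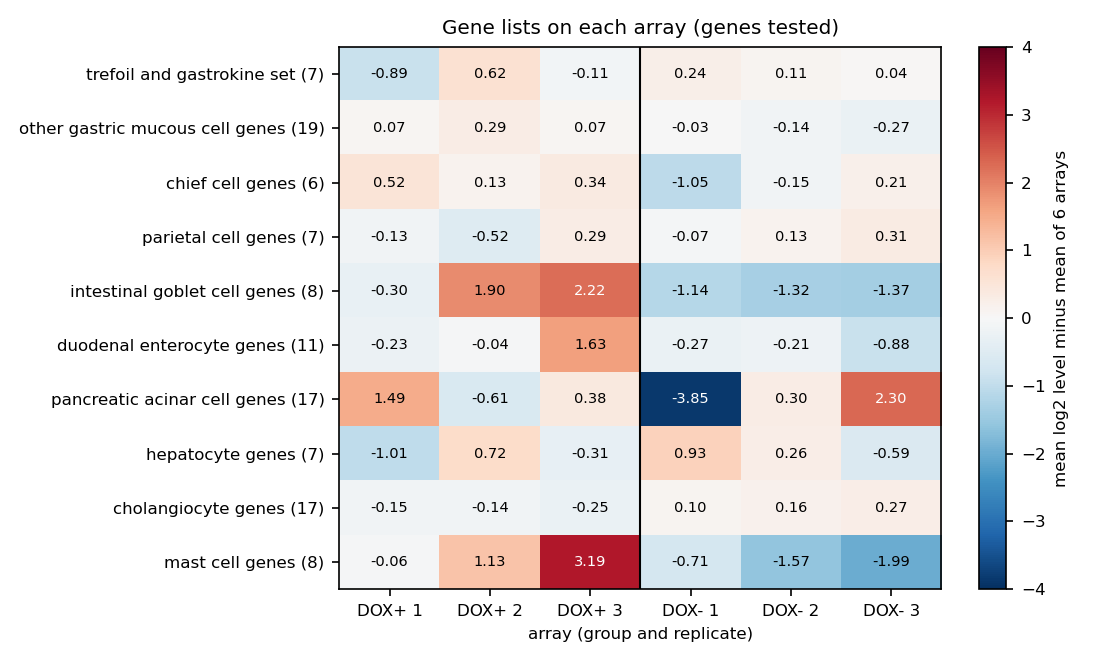
Each cell gives the mean log2 level of the measured genes of a list on 1 array, minus that list's mean over the 6 arrays (colour and printed number), with the 3 DOX+ arrays to the left of the line and the 3 DOX- arrays to the right; the number of genes measured is in parentheses. The trefoil and gastrokine set ranges from -0.89 on DOX+ replicate 1 to 0.62 on DOX+ replicate 2, and pancreatic acinar genes from -3.85 to 2.30, both on DOX- arrays.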

How the data were processed

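Gene expression was measured on 6 Agilent 1-colour arrays of 60-base probes, 1 per sample. In the deposited scanner files the unit is fluorescence intensity of each spot. The authors extracted it with Agilent's Feature Extraction software, given as 10.7.1.1 per the file headers and as 9.5.1.1 per the submitters' processing notes. That intensity is background-subtracted within each array and not adjusted between arrays. A further deposited table holds the authors' processed intensity, whose sorted columns differ by no more than 0.00034 of their value, a pattern that quantile normalisation leaves. Its scale is linear, each column has a median of 57.8, and its values correlate with the scanner values at r of 0.998 to 1.00 across probes.

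Here each processed intensity was divided by its array's 75th percentile (663 to 903 units) and taken to log2, without control or outlier spots (50 to 64 per array). Probes well above background on all 3 arrays of a group were kept (31720 of 56605), and the brightest represented each gene. Names came from RefSeq (GRCm38.p6): 32994 probes by accession, 10224 by symbol, 520 by an older symbol, and 12867 kept the file's name. Probe coordinates are on mm9, per the file headers.

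The fit of DOX+ against DOX- used limma 3.58.1 (R 4.3.3, 2-sided, Benjamini-Hochberg over 20737 genes, threshold 0.05), after a test on simulated data. The number of arrays limits the precision. The 10 genes and all lists were chosen with earlier results of these data known. Every one of the 10 genes is described. From each other list whose differences are given, the text names the 3 genes with the smallest p and some markers set by name (Muc5ac, Muc6, Pgc, Atp4a, Atp4b, Sox2, Cdx2 and Pdx1), while Fgf10, Krt19, Gata6 and Zg16 were added for their role. Fcgbp and Spink4 were named as the goblet cell genes with a lower mean in DOX+, and Ctrb1 and Cela1 for their brightness. Clps was named because the pancreatic acinar list holds it as well as the chief cell list. Genes like Tff1 were ranked by Pearson r. Alternatives were other background corrections and normalisations, the authors' table, other filters, a mean over probes, slide row and replicate blocks, array weights, and leaving out each array. Same-numbered samples did not deviate together (correlations of -0.09, -0.13 and -0.02), so replicate numbers were not taken as pairs. No construct sequence was used here.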

Additional observations from a re-analysis of the deposited data

Results flagged for a closer look

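The Vsig1 probe gave a processed signal of 149.743 units on the array of DOX+ replicate 2, above the highest DOX- signal of 8.42 units. It stood out because the gene lay outside the comparison: it was well above background on that array alone, so it did not enter the test. No fold change is given, since no DOX- array measured it. On the same array Gkn3, Tff2 and Muc6 had their highest levels.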

How the results depend on the processing

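None of the 7 genes passed the adjusted limma test under any alternative. The direction of Tff1, Tff3 and Ctse was the same in all of them. Tff2 turned to 0.2311, 0.2725 and 0.0359 without DOX+ replicate 1, DOX+ replicate 3 and DOX- replicate 1, and Gkn3 to -0.4741 without DOX+ replicate 2. Anxa10 turned to -0.6233 and -0.4405 without replicate 3 of DOX+ and of DOX-, to -0.6665 with a slide row block and to -0.4437 with array weights. Cldn18 turned to 0.0363 without DOX+ replicate 2, 0.0036 without DOX- replicate 3 and 0.075 with the slide row block. The cause was not tested. Over the fits that left out 1 array, differences ranged from -0.9068 to 0.2725 for Tff2, -0.4741 to 1.691 for Gkn3, -0.6233 to 0.6983 for Anxa10 and -0.4176 to 0.0363 for Cldn18.

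Of all genes, 8 passed in the fit reported. The count was 7 with normexp and quantile normalisation, 2 with quantile normalisation, 2 with the authors' table, 1 of 37008 without a filter, 5 of 19162 when all 6 arrays had to be well above background and 12 with a mean over probes. It was 0 with a slide row block (1418 at an unadjusted p under 0.05) and 383 with array weights. With the replicate block it was 0 (2255 at an unadjusted p under 0.05), and the differences of the 7 genes were unchanged. Leaving out 1 array gave 0 to 9: 0 without DOX- replicate 2 (1534 at an unadjusted p under 0.05) and 1 without DOX+ replicate 1. Signal over background limits Gkn1, Gkn2 and Vsig1, which have no measured difference.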

Other observations

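Relatives of 3 of these genes were measured in the same fit. Of 11 other annexins, calcium-dependent membrane-binding proteins, 2 had a higher and 9 a lower mean in DOX+, with a median difference of -0.45 and 0 past the limma test (5 lower at an unadjusted p under 0.05, against 6.17% of all genes). The smallest p-values were those of Anxa3 (difference -0.73, limma adjusted p = 0.188), Anxa2 (-0.62, 0.208) and Anxa1 (-0.73, 0.258), each with all DOX+ arrays below all DOX- arrays. That held for 5 of the 11, against 10.6% of all genes. Of 12 other claudins measured, the mean in DOX+ was higher for 4 and lower for 8, at a median difference of -0.19 and 0 past the limma test; 2 of the 12 entered it through 1 group alone. Cldn7 and Cldn3, claudins of many epithelia, differed by -0.79 and -0.62 (limma adjusted p = 0.285 and 0.300), and Cldn5, the endothelial claudin, by 1.52 (limma adjusted p = 0.344). Of 12 other cathepsins measured, the mean was higher for 4 and lower for 8, at a median difference of -0.04 and 0 past the limma test. Ctsf, a lysosomal cysteine protease, differed by 0.81 (limma adjusted p = 0.158), Ctsb by -0.51 (limma adjusted p = 0.328) and Ctsh by -1.04 (limma adjusted p = 0.413).

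Of the listed mast cell genes, 8 of 8 measured had a higher mean in DOX+, with a median of 2.75 and 0 past the limma test (6 at an unadjusted p under 0.05). Over all genes 48.8% had a higher mean in DOX+ and 7.17% were higher at that p, and 2 of the 8 mast cell genes entered the test through DOX+ alone. The tryptase Tpsb2 differed by 2.18 (limma adjusted p = 0.176) and the protease Mcpt1 by 5.57 (limma adjusted p = 0.245). Fcer1a, an IgE receptor subunit, was well above background on 3 DOX+ arrays and 1 DOX- array and differed by 3.41 (limma adjusted p = 0.220). The mean level of the list was -1.27, -0.08 and 1.98 in DOX+ replicates 1 to 3 and -1.92, -2.79 and -3.20 in DOX- replicates 1 to 3. Of the endothelial genes, 8 of 8 had a higher mean in DOX+ and 0 passed the limma test (4 at an unadjusted p under 0.05), at a median difference of 0.55. The smallest p-values were those of Plvap (difference 0.74, limma adjusted p = 0.208), Tie1 (0.66, 0.210) and Pecam1 (0.55, 0.234). Of 17 bile duct genes measured, the mean was higher for 4 and lower for 13, at a median difference of -0.22 and 0 past the limma test. At an unadjusted p under 0.05 there were 1 higher and 3 lower, against 7.17% and 6.17% of all genes. The bile acid transporter Slc10a2 differed by -1.74, the epithelial cadherin Cdh1 by -2.01 and the keratin Krt7 by -1.01 (limma adjusted p = 0.170, 0.171 and 0.171), each with all DOX+ arrays below all DOX- arrays. Of the 17 bile duct genes, 5 were lower and 1 higher without overlap, against 10.6% and 10.4% of all genes.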
